A study of Neurospora crassa with 2 samples.

Results

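The transcription factor genes with series symbols were 35 of the 10559 genes measured in wild-type *Neurospora crassa*. They were chosen by symbol, as the transcription factor genes whose names belong to numbered series: tah, ada, vad, sah, kal, bek, col, asl, mld, clr, xlr and znf. The table held 8 col genes, 6 ada, 6 vad, 4 tah, 3 sah, 2 bek and 2 clr genes, 1 gene each of kal, asl, mld and xlr, and 0 znf genes. RefSeq (assembly NC12) listed all 35 as protein-coding. Protein sequences were not used here, so their DNA-binding domains were not checked. The hyphae were of the WT strain, which carries the *bd* allele and mating type *a*, grown in minimal medium with glucose and kept in constant darkness for 20 hr (DD20) or 12 hr (DD12). Genotype, medium and darkness were shared by both groups, and the sample titles differ only in the hours in the dark. Anything else that differed between the libraries cannot be told apart from those hours. The RNA was described as duplicate samples, each an equal pool of 3 independent samples, but each time point has a single column of values. The sources used here do not give whether that column comes from 1 duplicate or from both. No difference below therefore has a replicate check, and no p-value was computed.

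Transcription factors bind DNA and switch target genes on or off, and several of these series take their names from how gene knockouts changed colony form. The tah mutants have tall and the sah mutants short aerial hyphae, the upright filaments that bear the asexual spores (conidia). Mutants of the ada series are altered in all of development, vad mutants in vegetative growth and asexual development, and col mutants form tight colonies, while asl stands for ascospore lethal. The clr and xlr genes are named for their function, since CLR-1 and CLR-2 are the regulators of cellulose degradation and XLR-1 is that of xylan degradation. In *Neurospora*, formation of conidia is a classical output of the circadian clock, and light and the clock act on development in part through cascades of transcription factors.

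PolyA RNA was sequenced and expression was deposited as RPKM, reads per gene scaled to the length of the gene model and to the size of the library. RPKM is divided by length, so levels can be compared between genes. The steps between low values gave library totals of 29960356 reads at DD20 and 30712952 reads at DD12, and a whole number of reads for each of the 35 genes. The gene length was unique for 28 of them and was the longest possible one for the other 7 (tah-4, mld-1, sah-3, col-21, col-24, vad-2 and xlr-1). Genes that averaged 1 RPKM or more over both columns are called expressed genes here. They were 7414 in all and 32 of the 35, the others being mld-1, clr-2 and xlr-1. The 32 had 77 to 15913 reads at DD20 (median 950) and 90 to 17121 at DD12 (median 895). The log2 ratio is that of DD20 over DD12 after 1 was added to each RPKM, which understates the change of low genes. The fold is the plain RPKM ratio, DD20 over DD12, with an exact 95% Clopper-Pearson interval computed after halving the reads, since mates of a pair were taken as counted separately. Such an interval covers only counting error, and so compares 2 columns rather than 2 conditions. In RNA from whole cultures, fewer cells that express a gene and less of its RNA per cell cannot be told apart.

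The 35 genes covered most of the expression range, and 20 of them lay above the median gene of the table at each time point. ADA-1, altered in all of development when lost, was encoded by the most abundant transcript. The level of ada-1 was 198 RPKM at DD20, against 234 RPKM at DD12. Next came kal-1 with 150 RPKM at DD20 and 131 RPKM at DD12. Together these 2 genes held 50.01% of the summed RPKM of the series at DD20 and 52.7% at DD12. Each exceeded at least 96.1% of all genes of the table at both times.

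Below them, a group of 14 genes at DD20 and 11 at DD12 lay between 10 and 50 RPKM, and 16 at DD20 and 19 at DD12 lay between 1 and 10 RPKM. At DD20 tah-3 (38.6 RPKM), bek-2 (37.1 RPKM) and sah-2 (37.0 RPKM) had overlapping counting intervals, so their order was not resolved. At DD12 these genes were separated beyond counting error, with 48.2 RPKM for sah-2, 40.7 RPKM for tah-3 and 25.3 RPKM for bek-2. Of the 34 pairs of neighbours in the order of levels, 27 at DD20 and 24 at DD12 had overlapping intervals. The order as a whole was similar at both times, with a Spearman's rho of 0.98 across the 32 genes, which come from the same pair of libraries and are not independent replicates. Across all 7414 expressed genes the rho was 0.96.

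**Figure D1:**
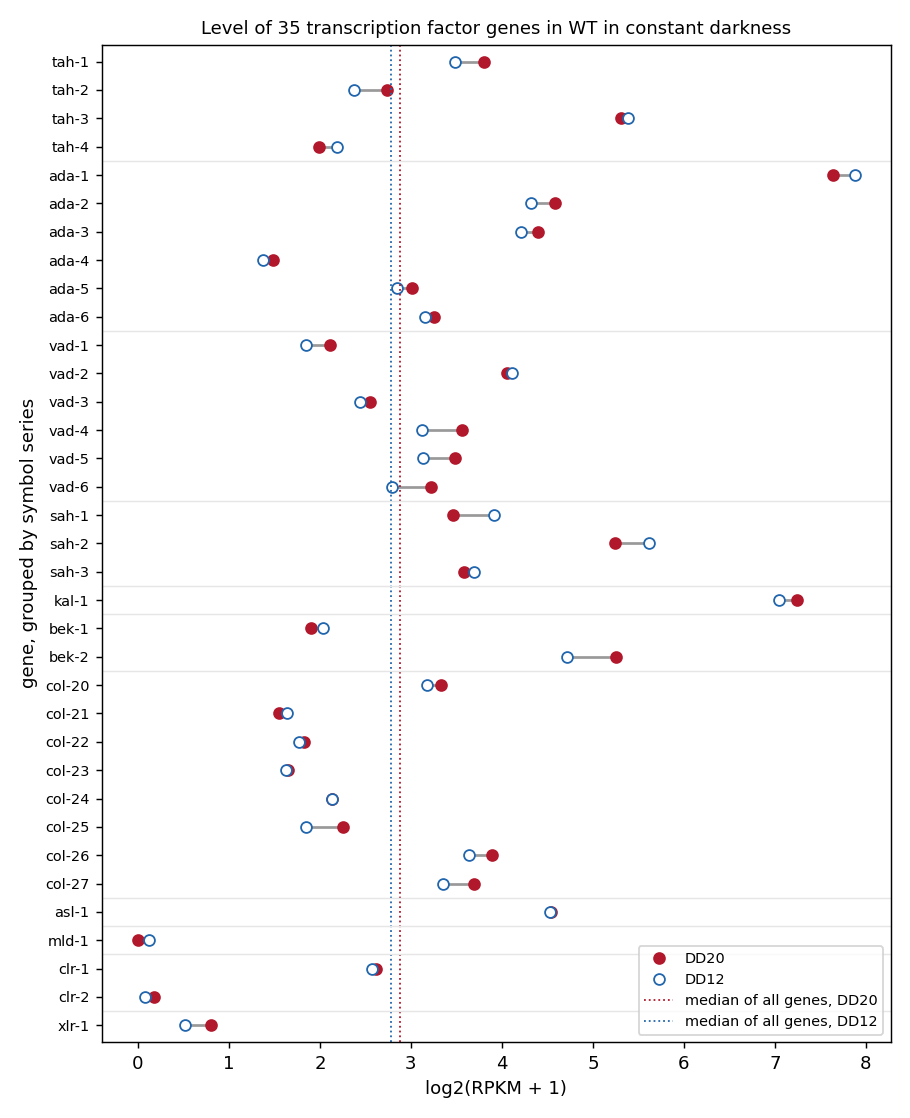
RPKM of the 35 transcription factor genes, as log2(RPKM + 1), at DD20 (filled red) and DD12 (open blue), grouped by symbol series, with dotted lines at the median of all 10559 genes of each library. ada-1 and kal-1 stand above 100 RPKM at both times, and mld-1, clr-2 and xlr-1 lie under 1 RPKM at both.

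None of the 32 expressed genes reached a 1.5-fold difference between the time points. At a threshold of 2-fold, 0 of the 32 expressed genes lay above it and 0 below it, whereas 0.742% of the 7414 expressed genes of the table passed it with more at DD20 and 2.33% with more at DD12. At 1.5-fold the counts among the 32 were again 0 and 0, beside 8.40% of expressed genes with more at DD20 and 6.66% with more at DD12. No test sets these counts apart from the shares in the table. The median absolute log2 ratio was 0.18 in the 32 genes and 0.28 in all expressed genes. Among other genes with a mean RPKM between the quartiles of the 32 (3.36 and 16.6 RPKM) it was 0.26, and among those with a length between their quartiles (2972.5 and 4212.25 nt) it was 0.25.

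The median log2 ratio was 0.11 in the 32 genes and 0.15 in all expressed genes, and 22 of the 32 (68.8%) were higher at DD20, against 66.2% of all expressed genes. Directions this close to 0 depend on the scaling of the libraries. With the libraries rescaled without the 10 most abundant genes, the median of all genes moved to -0.027 and that of the 32 to -0.041, and 11 of the 32 genes (34.4%) were then higher at DD20, against 46.5% of all expressed genes. Counting intervals are therefore read against 0 and against the median of the table. The interval lay above 0 in 12 of the 32 genes, a share of 37.5%, against 44.5% of the 7375 expressed genes whose reads could be recovered. It lay below 0 in 3 of the 32, a share of 9.38%, against 18.3% of these genes. Against the median expressed gene, the interval was higher in 8 of the 32 (25.0%, beside 27.9% of these genes) and lower in 8 of the 32 (25.0%, beside 28.5%). The 8 higher genes were bek-2, vad-4, vad-5, vad-6, col-25, col-27, tah-1 and tah-2. The 8 lower genes were the 3 sah genes, ada-1, tah-3, tah-4, vad-2 and asl-1. Of the 12 genes with an interval above 0, ada-2, ada-3, col-26 and kal-1 did not differ from the median gene beyond counting error.

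**Figure D2:**
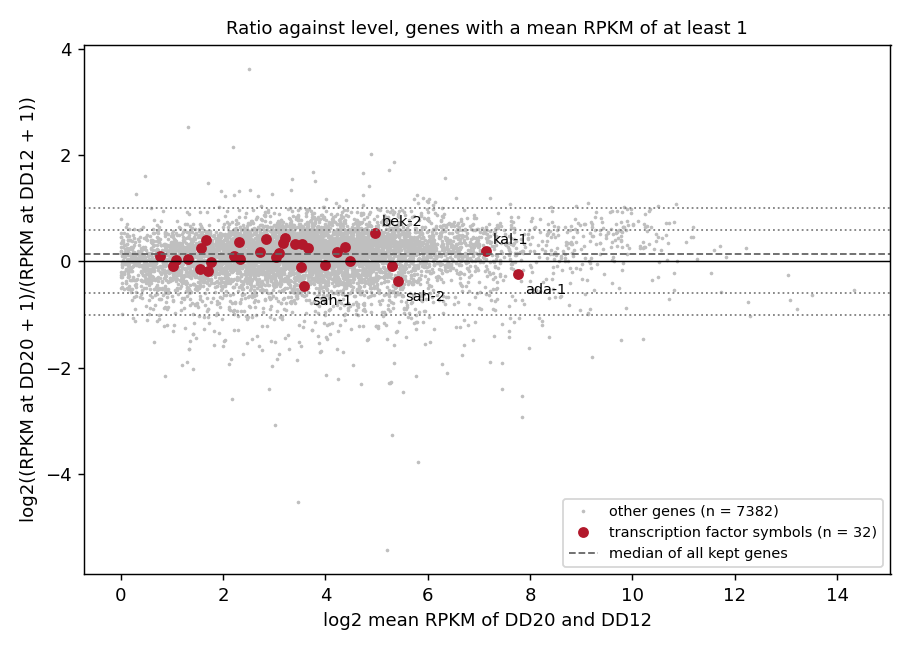
Log2 ratio of DD20 over DD12 against the log2 mean RPKM for all 7414 expressed genes, with the 32 transcription factor genes in red, a dashed line at the median of 0.15 and dotted lines at 1.5-fold and 2-fold. The red points lie inside the 1.5-fold lines at all levels of expression, while other genes spread far beyond them.

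Among series with more than 1 expressed gene, sah was the one in which all members were lower at DD20. The share of all expressed genes lower at DD20 was 33.8%. The median log2 ratio of the sah genes was -0.37. All 3 were lower as deposited, against the median gene and with rescaled libraries. sah-1 had the lowest ratio of the 32 genes. Its level was 10.004 RPKM at DD20, from 853 reads, and 14.1 RPKM at DD12, from 1230 reads. The fold was 0.711, with a counting interval of 0.627 to 0.806, and the log2 ratio of -0.45 was undercut by 9.41% of expressed genes. Past 1.5-fold it lay only against the median gene, at -0.60, and with rescaled libraries, at -0.64.

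SAH-2 is the *Neurospora* relative of the sterol regulatory element binding proteins, which act in sterol homeostasis. The level of sah-2 was 37.0 RPKM at DD20, from 6017 reads, and 48.2 RPKM at DD12, from 8040 reads. Its fold was 0.767, with an interval of 0.732 to 0.805. Of its RefSeq span, 931 of 5501 nt overlap the gene NCU14166, which was far lower, at 6.49 RPKM at DD20 and 4.90 RPKM at DD12. The log2 ratio of NCU14166 was 0.35 and so lay on the other side of 0. sah-3 was lower by less, with 11.0 RPKM at DD20 and 12.0 RPKM at DD12, and its interval for the fold, 0.818 to 1.04, spanned no difference.

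The ada series was led by ada-1, the only one of the 6 genes listed under an ada symbol that was lower at DD20. The gene fld, whose RefSeq synonym is ada-7, is not among the 6 and had a log2 ratio of -1.25. For ada-1 there were 14144 reads at DD20 and 17121 at DD12, a fold of 0.847 with an interval of 0.821 to 0.874. In RPKM this was the largest difference of the 35 genes, at -35.8 RPKM, although on the log2 scale it was only -0.24. The span of ada-1 shares 424 of its 3006 nt with NCU16460, a gene with 325 RPKM at DD20 and 378 RPKM at DD12, and a log2 ratio of -0.22. The strand handling of the counting is not given in the sources used here, so reads in the shared stretch cannot be assigned to either gene, and their part in the value of ada-1 was not tested.

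The other 5 ada genes were higher at DD20 as deposited, beside 66.2% of all expressed genes. With rescaled libraries only ada-2 had a log2 ratio above 0, at 0.073, beside 46.5% of all expressed genes. The interval of ada-2 then took in 0. ada-2 had 23.0 RPKM at DD20 and 19.0 RPKM at DD12, a fold of 1.21 with an interval of 1.08 to 1.36. It overlaps by 210 nt with the abundant gene NCU02016, which had 364 RPKM at DD20 and 312 RPKM at DD12. The log2 ratio of NCU02016 was 0.22, beside 0.27 for ada-2. Reads in the shared stretch cannot be assigned here either, and their part in the value of ada-2 was not tested. ada-3 had 20.0 RPKM at DD20 and 17.5 RPKM at DD12, with an interval for the fold of 1.05 to 1.24, and its log2 ratio of 0.18 became -0.0097 with rescaled libraries. The intervals of ada-4, ada-5 and ada-6 spanned no difference. ADA-6 takes part in conidiation, sexual development and the response to oxidative stress. The level of ada-6 was 8.52 RPKM at DD20 and 7.94 RPKM at DD12, with an interval for the fold of 0.907 to 1.27.

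At the other end, bek-2 had the highest ratio. It had 37.1 RPKM at DD20, from 4335 reads, and 25.3 RPKM at DD12, from 3021 reads. The fold was 1.47 with an interval of 1.38 to 1.57, and the log2 ratio of 0.54 was higher than that of 89.3% of expressed genes. It stayed above 0 against the median gene, at 0.39, and with rescaled libraries, at 0.34. Its namesake bek-1 did not share this. bek-1 had 2.73 RPKM at DD20 and 3.11 RPKM at DD12, from only 77 reads at DD20 and 90 at DD12, and an interval for the fold of 0.555 to 1.38.

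The vad series held 3 of the 6 highest ratios. vad-4 had 10.8 RPKM at DD20 and 7.70 RPKM at DD12, a fold of 1.40 with an interval of 1.25 to 1.57. vad-6 had 8.32 RPKM at DD20 and 5.91 RPKM at DD12, a fold of 1.41 with an interval of 1.23 to 1.61. vad-5 had 10.2 RPKM at DD20 and 7.80 RPKM at DD12, a fold of 1.30 with an interval of 1.17 to 1.45. All 3 intervals also lay above the median gene. The other members had intervals that spanned no difference. The level of vad-1 was 3.32 RPKM at DD20 and 2.60 RPKM at DD12. That of vad-3 was 4.85 RPKM at DD20 and 4.44 RPKM at DD12, and that of vad-2 was 15.6 RPKM at DD20 and 16.3 RPKM at DD12. In the series as a whole, the median log2 ratio was 0.30, against 0.15 in all expressed genes. As deposited, 5 of the 6 were higher at DD20, beside 66.2% of all expressed genes. With rescaled libraries 4 of the 6 were higher, beside 46.5%. vad-3 and vad-4 are near neighbours in the genome, with 2 genes between them in the order of RefSeq. The log2 ratio of vad-3 was 0.11 and that of vad-4 was 0.44.

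**Figure D3:**
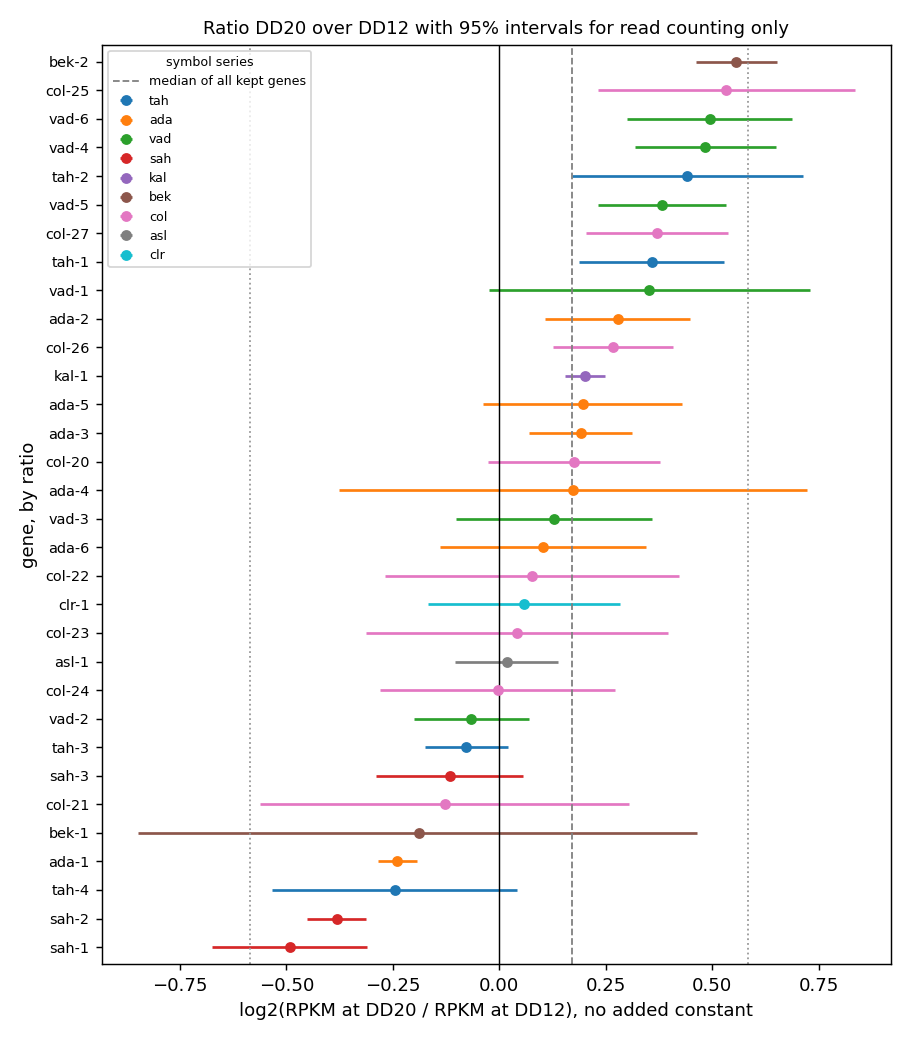
Log2 of RPKM at DD20 over RPKM at DD12, without the added 1, for the 32 transcription factor genes, coloured by symbol series, with bars for the exact 95% interval of read counting. The dashed line is the median of all genes (0.17 on this scale) and the dotted lines mark 1.5-fold. bek-2 stands at the top, followed by col-25, vad-6 and vad-4, and sah-2 and sah-1 stand at the bottom.

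The tah series was split, with 2 members higher and 2 lower at DD20 under each of the 3 scalings. tah-1 had 13.01 RPKM at DD20 and 10.2 RPKM at DD12, a fold of 1.28 with an interval of 1.14 to 1.44. tah-2 had 5.68 RPKM at DD20 and 4.18 RPKM at DD12, a fold of 1.36 with an interval of 1.13 to 1.64. With rescaled libraries, both intervals took in 0. The most abundant of the series, tah-3, had 38.6 RPKM at DD20 and 40.7 RPKM at DD12, with an interval of 0.886 to 1.013. The level of tah-4 was 2.99 RPKM at DD20 and 3.54 RPKM at DD12, and 1436 of its 4356 nt overlap the weakly expressed gene NCU07946.

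Of the 8 col genes, 6 were higher at DD20 as deposited, beside 66.2% of all expressed genes. With rescaled libraries 3 of the 8 were higher, beside 46.5%. The median log2 ratio of the 8 was 0.11. The col genes were mostly weak transcripts, with a median of 3.58 RPKM at DD20 and 3.002 RPKM at DD12. The highest ratio was that of col-25, which had 3.77 RPKM at DD20 and 2.61 RPKM at DD12, from 447 reads at DD20 and 317 at DD12, and a fold of 1.45 with an interval of 1.17 to 1.78. col-27 had 12.0 RPKM at DD20 and 9.25 RPKM at DD12, a fold of 1.29 with an interval of 1.15 to 1.45. The intervals of col-20, col-21, col-22, col-23 and col-24 spanned no difference, and their log2 ratios ran from -0.086 (col-21) to 0.16 (col-20). The interval of col-21 for the fold ran from 0.677 to 1.23.

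COL-26 is needed for the use of starch and for the response to glucose. The level of col-26 was 13.8 RPKM at DD20 and 11.5 RPKM at DD12, a fold of 1.20 with an interval of 1.09 to 1.33 that did not exclude the median gene. CLR-1 acts upstream of CLR-2 when cellulose is the carbon source. On glucose, clr-1 had 5.14 RPKM at DD20 and 4.94 RPKM at DD12, with an interval for the fold of 0.890 to 1.22. clr-2 had only 0.130 RPKM at DD20, from 13 reads, and 0.0584 RPKM at DD12, from 6 reads. xlr-1 had 0.743 RPKM at DD20, from at most 74 reads, and 0.431 RPKM at DD12, from at most 44 reads. The fold was 2.22 for clr-2, with an interval of 0.492 to 13.5, and 1.72 for xlr-1, with an interval of 0.991 to 3.07. Both intervals took in no difference at this depth. The lower bound of xlr-1 lies close to 1 and rests on halved reads. mld-1 was at 0 reads at DD20, where 3 reads would be 0.0656 RPKM, and had 4 reads or fewer (0.0853 RPKM) at DD12. The symbols clr-3 and clr-4 matched no gene here.

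Genes that these regulators control were listed by symbol, and all 16 had a row (cellulases, xylanases, beta-glucosidases, cellodextrin transporters, glucoamylase and invertase). Only 7 of the 16 were expressed, beside 7414 of the 10559 genes of the table. Of the 7, 0 differed by 1.5-fold, beside 8.40% of all expressed genes with more at DD20 and 6.66% with more at DD12. The median log2 ratio of the 7 was 0.029, against 0.15 in all expressed genes. The cellobiohydrolase gene cbh-1 had 1.43 RPKM at DD20 and 1.65 RPKM at DD12, and the cellobiohydrolase gene gh6-2 had 4.06 RPKM at DD20 and 3.96 RPKM at DD12. The highest was gla-1, the glucoamylase gene that acts on starch, with 30.9 RPKM at DD20 and 26.4 RPKM at DD12. Its log2 ratio was 0.22. The invertase gene inv had 16.7 RPKM at DD20 and 19.7 RPKM at DD12, a log2 ratio of -0.23. Its interval was the 1 of the 7 below 0, beside 18.3% of expressed genes with recovered reads. Above 0 lay the intervals of 2 of the 7, beside 44.5%. These were gla-1 and gh3-3, the latter with a log2 ratio of 0.26. The xylanase gene gh10-1 was at 0 reads at DD20 and 2 reads or fewer at DD12.

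Of the genes that were the only match to their series symbol, kal-1 had 15913 reads at DD20 and 14192 at DD12. Its fold was 1.15 with a narrow interval of 1.11 to 1.19. Its log2 ratio was 0.20 as deposited and -0.00031 with rescaled libraries, so that its direction rests on the scaling. asl-1, also known as atf-1, encodes a bZIP factor of the ATF/CREB type that acts downstream of the osmosensing MAP kinase pathway. It had 22.3 RPKM at DD20 and 22.0 RPKM at DD12. Its interval for the fold, 0.931 to 1.10, spanned no difference but lay below the median gene, at a log2 ratio of -0.13 against it. The gene ts, whose RefSeq synonym is asl-2, was not matched by symbol and had a log2 ratio of -0.79.

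**Figure D4:**
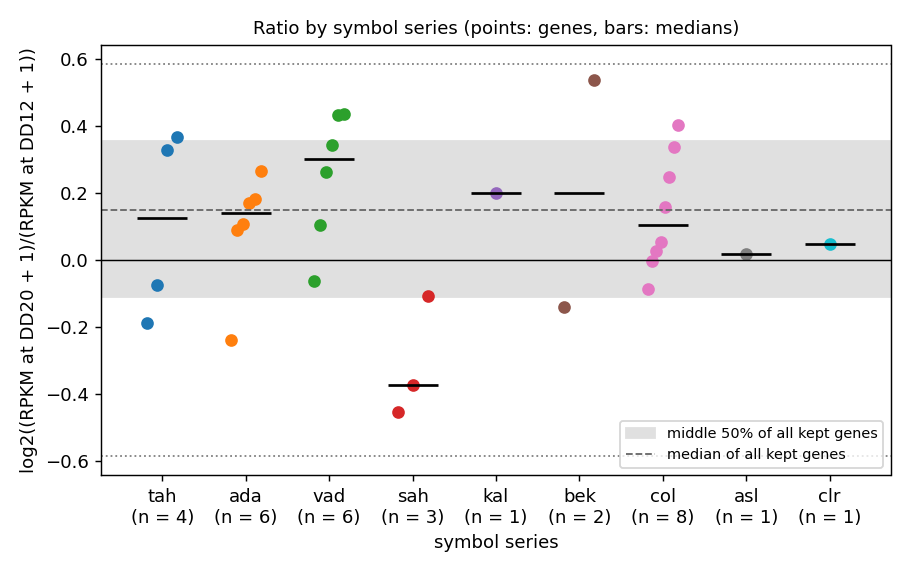
Log2((RPKM at DD20 + 1)/(RPKM at DD12 + 1)) of the 32 genes by symbol series, with a bar at the median of each series, the middle 50% of all 7414 expressed genes shaded (-0.11 to 0.36), a dashed line at their median of 0.15 and dotted lines at 1.5-fold. The 3 sah genes lie below 0, beside 33.8% of all expressed genes. Above 0 lie 5 of the 6 vad genes, beside 66.2% of all expressed genes.

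Gene length was not used in the choice by symbol. The 35 genes had a median length of 3345 nt, against 2158.5 nt for expressed genes with a unique length, and 3 of them (ada-2, mld-1 and bek-1) were shorter than 2158.5 nt. The median log2 ratio of other genes between the length quartiles of the 32 was 0.18. The spans of 9 genes overlap another gene (ada-1, ada-2, ada-5, asl-1, bek-2, col-23, col-24, sah-2 and tah-4). Next to col-26 lies ccg-14, a clock-controlled gene with 52.4 RPKM at DD20 and 406 RPKM at DD12, a log2 ratio of -2.93, while col-26 itself was at 0.25. The spans of col-26 and ccg-14 do not overlap. sah-2 lies next to qde-2 and sah-3 next to qde-1, both genes of RNA silencing, whose log2 ratios were 0.0076 and 0.36.

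Other transcription factors were listed by symbols outside the numbered series. Of 31 listed, 25 had a row under the listed symbol and all 25 were expressed. Among those without such a row was atf-1, which is a synonym of asl-1, one of the 35 genes. Among the 25, 1 was higher at DD20 by 1.5-fold, beside 8.40% of all expressed genes. At DD12, 2 were higher by 1.5-fold and 1 of these by 2-fold, beside 6.66% and 2.33% of all expressed genes. The list had a median log2 ratio of 0.023 and a median absolute log2 ratio of 0.23, beside 0.15 and 0.28 in all expressed genes. The 1 past 2-fold was csp-1, a repressor expressed in a circadian rhythm under the White Collar Complex, with 42.3 RPKM at DD20 and 87.8 RPKM at DD12. Next was sub-1, a light-responsive regulator of fruiting body development, with 13.9 RPKM at DD20 and 21.4 RPKM at DD12. rca-1 was higher, with 28.5 RPKM at DD20 and 18.0 RPKM at DD12. The log2 ratios of csp-1, sub-1 and rca-1 were -1.04, -0.59 and 0.64, all outside the range of the 32 genes, which ran from -0.45 to 0.54. Also below that range was csp-2, at -0.55. The genes of the White Collar Complex itself had log2 ratios of 0.023 for wc-1 and -0.15 for wc-2. On the log2 scale the counting interval of wc-1 spanned 0, while that of wc-2, -0.29 to -0.029, lay below 0.

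Since several series are named for aerial hyphae and conidia, genes of asexual development were set beside them. con-6 had 1.64 RPKM at DD20, from 38 reads, and 6.43 RPKM at DD12, from 153 reads. con-10 had 0.790 RPKM at DD20, from at most 16 reads, and 2.31 RPKM at DD12, from at most 48 reads. The gene eas, which encodes the hydrophobin of the conidial surface, had 7682 RPKM at DD20 and 9199 RPKM at DD12. The regulators fl and acon-3 differed by less than counting error, with log2 ratios of 0.14 and -0.20. Of the 7 markers listed, 5 were expressed, and 4 of these 5 were lower at DD20, beside 33.8% of all expressed genes, and 2 of them by 1.5-fold, beside 6.66%. Their median log2 ratio was -0.26. con-8 and con-13 were under 1 RPKM at both times. The part of development in the values of the sah, vad and ada genes was not tested, and DD20 and DD12 alone do not test a rhythm.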

How the data were processed

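The mRNA-seq of WT at DD20 and DD12 was analysed from 1 table of RPKM values. Per the labels the deposited values are RPKM, for which the authors scaled the reads of each gene by its length and by the library total. The submitters' processing notes name CASAVA 1.8 and HISAT, without a role. The genome build, annotation, counting method and strand handling are not given in the sources used here. Both sample columns were used, and each was assigned by its title. The table was read with scipy 1.17.1, numpy 2.4.6 and pandas 2.3.3 under Python 3.11.15. Figures used matplotlib 3.10.9.

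Library totals were taken from the value of 1 read in low genes. Gene lengths were the whole numbers from 30 nt to the RefSeq span that gave whole reads in both libraries, within 0.002 reads plus 2e-07 of the reads, and the longest was used where several did. Of 8726 genes above 0 at both times, 8718 gave whole reads, against 15.1% of 1500 with wrong totals. Even numbers of reads were counted in genes with 1 to 10 reads whose recovered length was the whole RefSeq span. They made up 59.0% of 205 such genes at DD20 and 60.9% of 202 at DD12. The mates of a pair were therefore taken as counted separately, and intervals rest on reads divided by 2. The steps were tested on simulated data.

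Log2 ratios used an added 1 RPKM and genes averaging 1 RPKM or more. With 1 column for each time point, calls are descriptions: 1.5-fold, 2-fold, and a counting interval that excludes 0. Members, lists (other transcription factors, targets of the carbon regulators, conidiation genes) and thresholds were chosen with earlier results of these data known. Genes were named by a rule: the 12 highest and 12 lowest log2 ratios, the 5 most abundant, and clr-1, clr-2, clr-3, clr-4, xlr-1, col-26, ada-1, ada-6 and asl-1. The rule also took members at 0. The members it left out (ada-3, ada-4, ada-5, col-20, col-22 and vad-3) were added so that each is accounted for. Genes that overlap or adjoin a member, and the genes named from the lists, were chosen after their values were seen. Alternatives were other pseudocounts, filters, scalings and members. Symbols, spans and the order of genes came from RefSeq assembly NC12, which matched 10526 of 10559 genes. No coordinates are given, since the build of the table is not named. Protein and promoter sequences were not used here.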

Additional observations from a re-analysis of the deposited data

How the results depend on the processing

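No paired analysis was possible because each time point is represented by a single column, so leaving out a replicate could not be tried either. The alternative by DNA-binding class was not run, since no protein sequences were used. The count of genes at 1.5-fold or more stayed at 0 in both directions, except that 1 gene (sah-1) was higher at DD12 with ratios centred on the median of all genes and with libraries rescaled without the 10 most abundant genes. The counts at 2-fold stayed at 0 in all 8 settings. Some settings only take genes out: 10 RPKM or more, no col series, and no genes of more than 1 possible length. These could not raise a count of 0 at either threshold. The median log2 ratio of the 32 genes, 0.11, was 0.14 with a pseudocount of 0.1 RPKM, 0.062 with a pseudocount of 5 RPKM, 0.099 in genes averaging 10 RPKM or more and 0.17 without the 7 genes of more than 1 possible length. It changed sign to -0.042 with centred ratios, where the median of all expressed genes is set to 0 by the construction. With rescaled libraries it was -0.041, beside -0.027 for all expressed genes. Intervals above 0 numbered 12 as deposited, 8 against the median gene, 6 with rescaled libraries and 15 on reads not divided by 2. Intervals below 0 numbered 3 as deposited, 8 against the median gene, 8 with rescaled libraries and 5 on reads not divided by 2. The 3 settings for intervals and the one on gene length were added after seeing the data. Among genes whose interval excluded 0, kal-1 (-0.00031) and ada-3 (-0.0097) changed sign with rescaled libraries. Genes under 100 reads (bek-1, xlr-1, clr-2 and mld-1) are limited by depth.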

Other observations

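RefSeq gives series names as synonyms to 2 more genes, which the choice by symbol left out because the table lists them under other names. They were noticed after their values were seen. fld, with the synonym ada-7, had 18.8 RPKM at DD20, from 1416 reads, and 46.1 RPKM at DD12, from 3568 reads, a log2 ratio of -1.25. ts, with the synonym asl-2, had 3.40 RPKM at DD20, from 300 reads, and 6.62 RPKM at DD12, from 598 reads, a log2 ratio of -0.79. Both ratios lie below the -0.45 of sah-1, the lowest of the 32 genes, and both counting intervals lie below 0 (-1.43 to -1.17 for fld and -1.25 to -0.67 for ts, on the log2 scale). A count of 0 genes past 1.5-fold in the numbered series therefore depends on which name of a gene the table uses.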
